A study of Mus musculus with 3 samples.

Results

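Transcripts of the translation initiation factors were compared between RNA recovered with YTHDF2 and input RNA in mouse embryonic stem cells (ESCs). The set was taken by name, as every gene whose symbol begins with Eif and a digit, leaving out names that contain -ps (pseudogenes) and the numbered Eif1ad copies. This gave 58 of the 49997 genes in the count table, and 10 rows of the same name were left out. RNA immunoprecipitation sequencing (RIP-seq) was run on E14 ESCs after 24 h of Dox, with 1 input library and 2 libraries from immunoprecipitation (IP) with an anti-YTHDF2 antibody. All 3 libraries came from the same treated line, and that line, per the study, holds a Dux transgene switched on by Dox as well as a tdTomato reporter under the Mervl promoter, so the effect of Dox itself is not part of the comparison. The labels name embryo as the source and E14 as the cell line. They do not say whether the IP libraries came from separate cultures, and the p-values below measure only the spread between these libraries, which may be technical. No IP with a control antibody was analysed here, so a ratio of IP to input holds both what YTHDF2 recovered and what the beads and antibody recovered without it.

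Initiation factors bring the ribosome to an mRNA and place it on the start codon. eIF2 carries the initiator tRNA and is recharged with GTP by eIF2B, and kinases that phosphorylate eIF2 slow this step under stress. eIF3 is a large scaffold on the small ribosomal subunit, and the eIF4 factors bind the cap and unwind the 5′ end of the mRNA. YTHDF2 binds RNA that carries N6-methyladenosine (m6A) and promotes its decay, and RIP-seq asks which transcripts come down with it beyond their share of the input. In ESCs, which divide fast, mRNAs of the initiation machinery are abundant.

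Total counts were 36986994 for the input and 35259827 and 35888743 for IP replicates 1 and 2. A count of 3 was taken as the floor, which is 0.0811 to 0.0851 CPM when counts are divided by the library total alone. In the input, the 8 ESC markers had levels of 301 to 5800 TPM (counts per exon length, scaled to the library), and the 6 markers of the 2-cell-like state 4.36 to 867 TPM. The 6 fibroblast markers were at 0 to 31.9 TPM with a median of 0.389, the 4 trophectoderm markers at 0 to 13.8 TPM and the 4 primitive endoderm markers at 0.141 to 2.47 TPM, with Col3a1 and Elf5 at 0. Counts were scaled by TMM, levels in CPM below are TMM-scaled, and log2 fold changes of IP over input, with their SE, come from 1 fit over the 19601 genes left by the low-count filter (1 input and 2 IP libraries). Enrichment and depletion were called past a 2-fold difference where the adjusted p-value was also below 0.05.

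In all, initiation factor transcripts were mostly lower in the YTHDF2 IP than in the input. Of the 58 genes, 56 were tested. Depletion was called for 16 of them, or 28.6%, against 14% of all tested genes, and enrichment for 2, or 3.57%, against 15.2% of all tested genes. At any fold, 36 members (64.3%) were lower, against 30.1% of all tested genes, and 13 (23.2%) were higher, against 28.5%. The other 7 did not pass the test, against 8114 of the 19601 tested genes. Small differences pass more easily at high counts, and the shares at any fold, here and below, were not matched for abundance. The median log2 fold change of the 56 was −0.50, and that of all tested genes was 0.0065. The members took 1.61% of input counts (95% Wilson interval 1.607 to 1.615), 1.25% of the counts of IP replicate 1 (1.246 to 1.253) and 1.26% of those of IP replicate 2 (1.26 to 1.267). Counting error is all that these intervals hold, and each mate of a read pair was counted on its own. Levels are of bulk RNA, in which the number of cells with a transcript and its amount per cell cannot be told apart.

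The IP libraries were compared with each other directly, since their ratios share the single input. The SD of the log2 ratio between the IP libraries was 0.0869 over the 54 members with a mean of at least 100 counts, against 0.205 over the 12620 genes with such counts. Eif4e3, a cap-binding relative of eIF4E, had the widest gap, with 32 input counts and 14 and 26 IP counts. The single input had no replicate, and its own spread is not in any of these values. With a dispersion fixed at 0.1 in place of the small one estimated from the IP libraries, 8 of the 16 depleted members and neither of the enriched ones kept their calls.

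**Figure D1:**
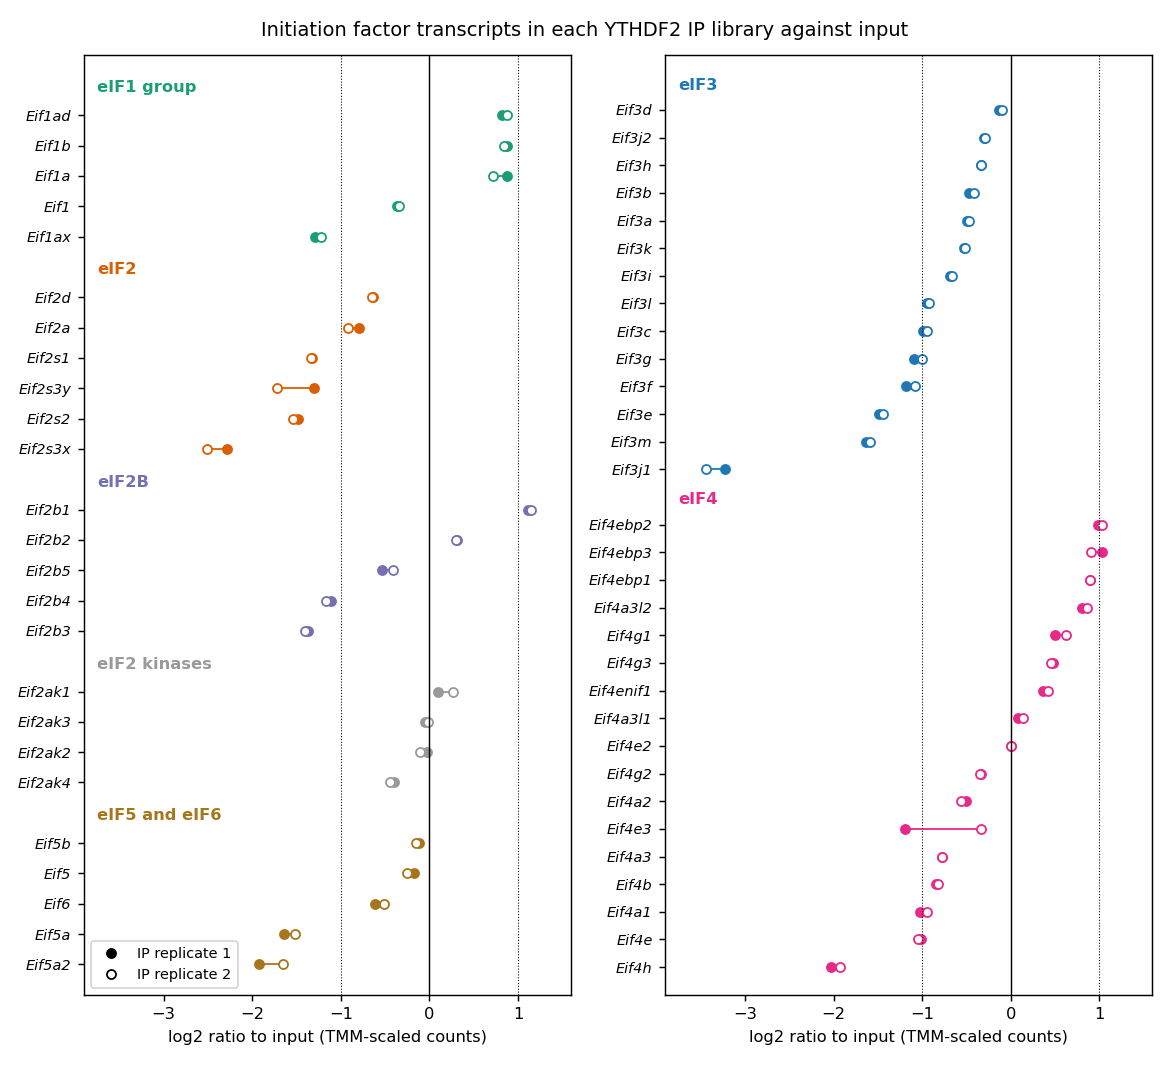
Log2 ratio of each YTHDF2 IP library to the input (TMM-scaled counts) for the 56 tested members, by factor group, with filled circles for IP replicate 1 and open circles for IP replicate 2 and dotted lines at a 2-fold difference. All 6 eIF2 and all 14 eIF3 genes sit left of 0, while Eif2b1 and the eIF4E-binding proteins sit near or past 1.

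The sequences that flank the m6A consensus are shown for the enriched pair and for a pair of strongly depleted members, since YTHDF2 reads methylated sites of this kind. These 4 genes were chosen after their values were seen. The letters GGACT, a common form of the consensus in DNA letters, were searched on the sense strand of the merged exons and are in capitals. Whether any of these sites was methylated was not measured in the files used here. Eif2b1 (chr5:124570214-124579131, minus strand, GRCm38) held 4 matches in its exons, 2 in the coding sequence and 2 in the 3′ UTR, as follows from 5′ to 3′.
Eif2b1, coding, chr5:124577079-124577099: tgtggtgtGGACTcctcagtg
Eif2b1, coding, chr5:124571277-124571297: ccatgggtGGACTacacctcc
Eif2b1, 3′ UTR, chr5:124571059-124571079: gaatccgtGGACTtctgctct
Eif2b1, 3′ UTR, chr5:124570412-124570432: atcatcctGGACTacatagtt

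Eif4ebp2 (chr10:61428491-61452790, minus strand) held 1 match in the coding sequence and 5 in the 3′ UTR, of which the first 2 and the last are shown.
Eif4ebp2, coding, chr10:61452439-61452459: ctacctcaGGACTactgcacc
Eif4ebp2, 3′ UTR, chr10:61432961-61432981: tctgaagaGGACTgagccgcc
Eif4ebp2, 3′ UTR, chr10:61431663-61431683: cctcctatGGACTctgaatcc
Eif4ebp2, 3′ UTR, chr10:61428809-61428829: gcctccaaGGACTccaatccc

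Among the depleted members, Eif4h (chr5:134619872-134639409, minus strand) held 2 matches, both coding, and Eif3j1 (chr2:122028580-122053632, plus strand) held 1 coding match and 4 in the 3′ UTR, of which the coding match and 2 others are shown.
Eif4h, coding, chr5:134639282-134639302: caaatggcGGACTtcgatacc
Eif4h, coding, chr5:134621959-134621979: tccaacatGGACTtcagagaa
Eif3j1, coding, chr2:122028700-122028720: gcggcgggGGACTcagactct
Eif3j1, 3′ UTR, chr2:122052716-122052736: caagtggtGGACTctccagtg
Eif3j1, 3′ UTR, chr2:122053207-122053227: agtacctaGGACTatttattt

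The density of the motif was 1.64 per kb of exon in Eif2b1 and 1.03 in Eif4ebp2, and 0.80 in Eif4h and 2.07 in Eif3j1. Over all tested genes the median was 1.03 per kb, and 88.4% held at least 1 match.

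The factors eIF1 and eIF1A steer start codon choice on the small subunit. The 5 genes of the eIF1 group, which by name also takes in Eif1ad, split. Eif1ad, Eif1b and Eif1a were higher in the IP, Eif1 was lower, and Eif1ax was depleted. Eif1a, which encodes eIF1A, had 8646 input counts and 16090 and 14699 IP counts, a log2 fold change of 0.79 ± 0.0598 (SE, adjusted p = 3.25e-19). Its X-linked relative Eif1ax, which encodes nearly the same protein, had 5632 input counts and 2358 and 2503 IP counts, a log2 fold change of −1.25 ± 0.0725 (adjusted p = 1.99e-26). The pair, set side by side after the values were seen, differed by 2.15 and 1.94 on the log2 scale in IP replicates 1 and 2. Both are A- and T-rich, with 41.2% GC in the exons of Eif1a and 39.9% in those of Eif1ax, and 0.1% and 0.0% of their 128-base words (every stretch of that length, somewhat shorter than a read) occur elsewhere in the genome. With the trend of the log2 ratio on GC content removed, Eif1a came to 1.47 and Eif1ax to −0.48, which was no longer over 2-fold.

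The start codon factor eIF1 itself also has a pair of genes. Eif1b had 753 input counts and 1407 and 1393 IP counts (log2 fold change 0.85 ± 0.119, adjusted p = 1.7e-09). Eif1, at 599 TPM in the input against 45.7 TPM for Eif1b, had 13571 input counts and 10704 and 11121 IP counts (−0.35 ± 0.0555, adjusted p = 4.72e-08). The log2 ratio of Eif1 less that of Eif1b was −1.24 and −1.17 in the IP libraries, so the less abundant gene had the higher ratio, though 20.3% of the words of Eif1 occur elsewhere. Eif1ad, whose product holds an eIF1A-like domain, had 3172 input counts and 5728 and 6059 IP counts (0.85 ± 0.0724, adjusted p = 9.24e-18).

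Transcripts of eIF2, the carrier of the initiator tRNA, had the lowest median of the groups, an order that was lost with the GC trend removed, when eIF5 and eIF6 were lowest (−0.99). Together the 6 genes of this group came to 1640 TMM-scaled CPM for the input against 650 and 622 for IP, and their median log2 fold change was −1.42. Depletion was called for 4 of the 6 (66.7%, against 14% of all tested genes), which encode the 3 subunits of the complex. The alpha subunit, Eif2s1, which carries the phosphorylated site, had 9881 input counts and 4021 and 4054 IP counts, and its log2 fold change was −1.33 ± 0.0628 (adjusted p = 1.28e-31). The beta subunit, Eif2s2, had 32681 counts against 11991 and 11629, with a log2 fold change of −1.51 ± 0.0501 (adjusted p = 3.85e-41). Its level in the input was 724 TPM.

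The gamma subunit, which binds the tRNA and GTP, is encoded on both sex chromosomes. Eif2s3x had 5124 input counts and 1075 and 930 IP counts, a 5.25-fold depletion (log2 fold change −2.39 ± 0.085, adjusted p = 5.41e-39). The Y-linked copy Eif2s3y was rare, with 109 input counts and 45 and 34 IP counts (−1.50 ± 0.412, adjusted p = 0.00113), and under the DESeq2 Wald test its adjusted p was 0.0727. Of the words of Eif2s3x, 90.6% occur elsewhere in the genome, so its counts rest on the few unique stretches and are uncertain. For Eif2s2 this share was 22.3%, for Eif2s1 1.5% and for Eif2s3y 0.3%.

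The remaining genes of this group, Eif2a and Eif2d, encode factors that deliver tRNA to the ribosome outside the eIF2 complex. Both were lower by less than 2-fold, with log2 fold changes of −0.85 ± 0.0741 for Eif2a and −0.65 ± 0.07 for Eif2d. Exons of the eIF2 subunit genes were A- and T-rich, with 40.0% GC in Eif2s1, 41.9% in Eif2s2, 43.8% in Eif2s3x and 40.3% in Eif2s3y, against a median of 49.7% over all tested genes. With the GC trend removed the median of the group was −0.70, and Eif2s1 (−0.57), Eif2s2 (−0.88) and Eif2s3y (−0.76, adjusted p = 0.11) were no longer called depleted, whereas Eif2s3x (−1.92) was. What base composition contributes to these ratios was not tested beyond this.

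**Figure D2:**
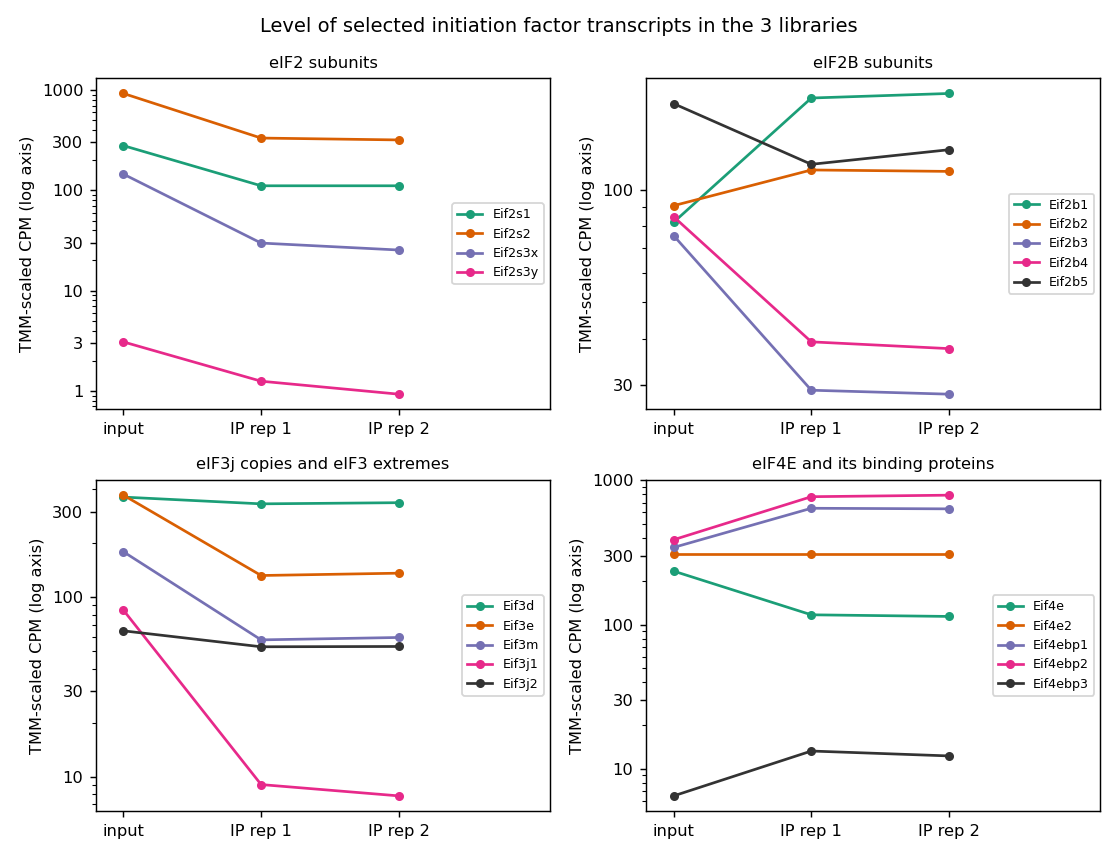
Level in TMM-scaled CPM (log axes) of selected transcripts in the input and the 2 IP libraries, with 1 line per gene. The 4 eIF2 genes fall together, the eIF2B genes cross between input and IP, Eif3j1 falls from 84.6 to 9.03 and 7.81 CPM while Eif3j2 stays between 64.9 and 52.9 CPM, and the eIF4E-binding proteins move opposite to Eif4e.

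Transcripts of the 4 kinases that phosphorylate eIF2 stayed close to the input. Eif2ak1, the heme-regulated kinase, had 2390 input counts and 2618 and 2984 IP counts, with a log2 fold change of 0.19 ± 0.0845 that only just passed the test (adjusted p = 0.0489) and missed it in several alternatives, DESeq2 among them (adjusted p = 0.217). Eif2ak4, the amino acid sensor GCN2, had 951 counts against 736 and 727 (−0.42 ± 0.127, adjusted p = 0.00335), and missed the threshold by DESeq2 as well (adjusted p = 0.0793). Eif2ak3, the kinase PERK of the endoplasmic reticulum, and Eif2ak2, the RNA-activated kinase PKR, had log2 fold changes of −0.033 ± 0.0889 and −0.07 ± 0.133 and did not pass. With the GC trend removed, however, Eif2ak2 came to 0.37 and passed (adjusted p = 0.0177). Exons of Eif2ak2 share 2214 bases with other annotated genes, and strand was not used in counting. The median of the kinases, −0.051, was 0.045 when only library totals were used, a setting that shifted the median over all genes by 0.0959.

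The eIF2B complex, which reloads eIF2 with GTP, was divided between its subunits. As a sum its 5 transcripts came to 503 TMM-scaled CPM for the input against 474 and 487 for IP, while 2 subunits were higher (40%, against 28.5% of all tested genes) and 3 lower (60%, against 30.1%). Eif2b1, the alpha subunit of the regulatory part, had the highest log2 fold change of the set, though Eif1a stood above it with the GC trend removed (1.47 against 1.12). It had 2895 input counts and 6366 and 6639 IP counts, a 2.18-fold enrichment (log2 fold change 1.13 ± 0.0726, adjusted p = 7.43e-24). The beta subunit, Eif2b2, had 3208 counts against 4071 and 4096 (0.31 ± 0.0749, adjusted p = 0.000247), and came to 0.045 with the GC trend removed.

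The other eIF2B subunits were lower in the IP. Eif2b4, the delta subunit, which is also of the regulatory part, had 2996 input counts and 1416 and 1378 IP counts (−1.14 ± 0.0881, adjusted p = 9.65e-20). Of the catalytic part, Eif2b3 (gamma) had 2667 counts against 1051 and 1039 (−1.39 ± 0.0945, adjusted p = 1.32e-22) and Eif2b5 (epsilon) had 6018 against 4221 and 4691 (−0.47 ± 0.0682, adjusted p = 5.01e-09). Eif2b1 and Eif2b4 thus stood 2.22 and 2.32 apart on the log2 scale in the IP libraries although their input levels were close (66 and 79.3 TPM). At most 0.9% of the words of any eIF2B gene occur elsewhere. With the GC trend removed, Eif2b1 (1.12) kept its enrichment and Eif2b3 (−1.09) and Eif2b4 (−1.53) their depletion.

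All 14 genes of eIF3, the scaffold of the small subunit, had a log2 fold change below 0, with a median of −0.81, and 13 passed the test (92.9%, against 30.1% of all tested genes). Scaling to TPM, under which the median over all genes shifted by 0.148, put 1 of them, Eif3d, at 0.033. Their summed level was 4260 TMM-scaled CPM for the input against 2570 and 2630 for IP. Depletion was called for 5 subunits, or 35.7%, against 14% of all tested genes. Eif3e had 13088 input counts and 4750 and 4997 IP counts (−1.47 ± 0.0596, adjusted p = 1.29e-35), and Eif3m had 6345 against 2085 and 2181 (−1.61 ± 0.0722, adjusted p = 4.86e-33). Both belong to the PCI and MPN core that holds the complex together.

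Eif3f, an MPN protein of that core, had 11491 input counts and 5173 and 5609 IP counts (−1.13 ± 0.0606, adjusted p = 2.52e-28). Eif3g, an RNA-binding subunit, had 10544 against 5072 and 5477 (−1.04 ± 0.0613, adjusted p = 5.6e-26). The call of Eif3g lies close to the line, at 2.06-fold. Just short of 2-fold were Eif3c (−0.96) and Eif3l (−0.94), both again of the core.

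The other subunits were lower by less. Eif3i and Eif3b, which form a module with Eif3g, had −0.67 and −0.44, the core subunits Eif3k, Eif3a and Eif3h had −0.52, −0.48 and −0.33, and Eif3d, which can bind the cap of some mRNAs, had 12780 input counts and 11947 and 12322 IP counts and did not pass (−0.11 ± 0.0555, adjusted p = 0.0691). The complex ran from −0.11 to −1.61 without eIF3j. The SE was 0.0722 or less for these 12 subunits, but it leaves out the spread of the single input. Over all tested genes the quartiles were −0.72 and 0.81. With the GC trend removed, Eif3e came to −0.70 and lost its call, while Eif3c and Eif3l, both at −1.04, gained one, Eif3a came to −0.086 and no longer passed (adjusted p = 0.167), and Eif3d came to −0.43 and passed (adjusted p = 2.3e-06). Eif3m (−1.13), Eif3f (−1.40) and Eif3g (−1.33) kept theirs.

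The most depleted member of the set was Eif3j1, which encodes the loosely bound subunit eIF3j. It had 2993 input counts and 326 and 286 IP counts, a 10.1-fold depletion (log2 fold change −3.33 ± 0.115, adjusted p = 4.78e-40). Its copy Eif3j2, a gene of 1 exon on chromosome 18, had 2294 counts against 1908 and 1944 (−0.29 ± 0.0882, adjusted p = 0.0031), so that the copies differed by 2.93 and 3.15 on the log2 scale in the IP libraries. This pair was set side by side after its values were seen. Of the words of Eif3j1, 78.9% occur elsewhere in the genome, and of those of Eif3j2, 51.9%. Counts leave out reads that map to several places, so both copies are measured over the stretches that differ, and how reads were divided between them is uncertain. With the GC trend removed Eif3j1 stayed at −2.62 and Eif3j2 turned to 0.42. The call of Eif3j2 as lower was missed under the DESeq2 Wald test (adjusted p = 0.0551), with library totals only (adjusted p = 0.0543) and with scaling to TPM (adjusted p = 0.157).

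**Figure D3:**
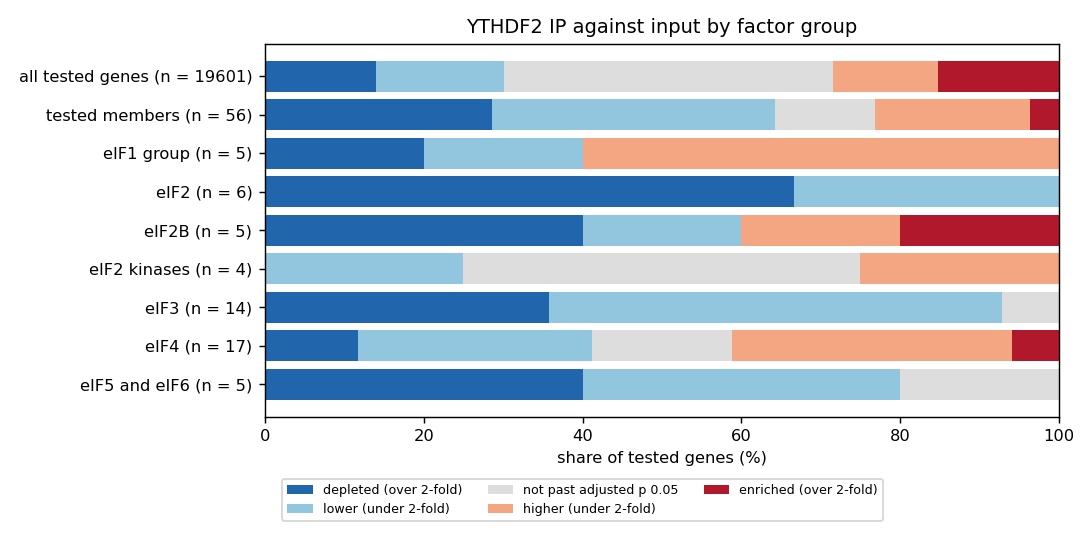
Share of tested genes (%) in each class of the comparison of IP with input, for all 19601 tested genes, all 56 tested members and each factor group, where the outer colours mark differences over 2-fold past the adjusted p of 0.05. The dark blue part covers 14% of all genes, 28.6% of the tested members and 66.7% of the eIF2 group, and the dark red part is seen among the groups in eIF2B and eIF4 alone.

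The eIF4 genes, grouped by name, went in both directions, and not all of them encode factors that act at the cap. Those higher in the IP were Eif4g1, Eif4g3, Eif4ebp1, Eif4ebp2, Eif4ebp3, Eif4enif1 and the pseudogene Eif4a3l2. Of the 17 tested, 7 were higher (41.2%, against 28.5% of all tested genes) and 7 lower (41.2%, against 30.1%) at any fold, 1 was enriched (5.88%, against 15.2%) and 2 depleted (11.8%, near the 14% of all), and the median was −0.0011, which lay above 0 under most of the alternatives (0.095 with library totals only). Eif4e, the cap-binding protein, had 8310 input counts and 4218 and 4163 IP counts (−1.03 ± 0.0643, adjusted p = 1.53e-24), while its relative Eif4e2, a repressor that binds the cap without joining eIF4G, had 11012 against 11236 and 11388 (−0.0011 ± 0.0568, adjusted p = 0.987). The call of Eif4e was close to the line, its exons have 39.9% GC, and its log2 fold change was −0.26 with the GC trend removed. Eif4e3 had 32 counts against 14 and 26 (−0.71 ± 0.657, adjusted p = 0.36). The germline form Eif4e1b, with 10, 2 and 0 counts, was not tested, and no fold is given since its IP counts were under the floor of 3.

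The 3 eIF4E-binding proteins, which block the joining of eIF4E and eIF4G until mTOR phosphorylates them, were all higher in the IP. Eif4ebp2 had 13705 input counts and 27826 and 28920 IP counts, a 2.01-fold enrichment (log2 fold change 1.01 ± 0.0527, adjusted p = 4.57e-29). Eif4ebp1, the most abundant of them at 687 TPM in the input, had 12120 against 23120 and 23263 (0.90 ± 0.0538, adjusted p = 1.51e-25). Eif4ebp3 was rare, with 230 counts against 480 and 449 (0.97 ± 0.2, adjusted p = 1.75e-05). The 2-fold line runs between the 3 genes, whose values lie within 0.11 of each other, so the single call does not set Eif4ebp2 apart. That call ended with the stricter filter on counts (0.99) and with the GC trend removed (0.84), in which Eif4ebp1 came to 0.52 and Eif4ebp3 to 0.83, while scaling to TPM put all 3 over 2-fold. Eif4enif1, which encodes the eIF4E transporter that binds eIF4E in processing bodies, was also higher, at 0.40 ± 0.0743 (adjusted p = 2.86e-06), and 841 bases of its exons overlap genes of the opposite strand.

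The eIF4G scaffolds link the cap to the ribosome. Eif4g1 had 14022 input counts and 20294 and 22272 IP counts (0.56 ± 0.0544, adjusted p = 3.95e-15), and Eif4g3, its less abundant homolog, had 851 against 1215 and 1205 (0.47 ± 0.119, adjusted p = 0.000437). Eif4g2, a relative that lacks the eIF4E-binding region, had 40651 against 32945 and 32945 (−0.34 ± 0.0463, adjusted p = 6.79e-10). The IP counts of Eif4g2 were the same number in both libraries, which differ in total. Eif4g1 stood above Eif4g2 by 0.84 and 0.97 on the log2 scale. With the GC trend removed, however, Eif4g2, at 43.0% GC, turned to 0.20 and Eif4g1 came to 0.32.

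Transcripts of the helicase eIF4A and its cofactors were lower, apart from the copies of Eif4a3. Eif4a1, listed at 1980 TPM in the input, had 66807 input counts and 33735 and 35974 IP counts (−0.98 ± 0.0444, adjusted p = 1.73e-32), and 62.8% of its words occur elsewhere. The row Eif4a-ps4, left out of the set as a pseudogene, had 13760 counts against 3395 and 3561 and a log2 fold change of −2.02, and it cannot be told how far the reads of such copies stem from Eif4a1. Eif4a2 had −0.53 ± 0.0491, and 0.11 with the GC trend removed. The cofactor Eif4b had 20626 counts against 11736 and 12107 (−0.83 ± 0.0524). Eif4h, a smaller cofactor that stimulates the helicase, had 13180 input counts and 3299 and 3588 IP counts, a 3.94-fold depletion (−1.98 ± 0.062, adjusted p = 1.01e-42). Of the words of Eif4h, 0.3% occur elsewhere, and its log2 fold change was −2.23 with the GC trend removed.

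Eif4a3, the helicase of the exon junction complex, had 8974 input counts and 5315 and 5410 IP counts (−0.78 ± 0.062, adjusted p = 3.49e-19). Its copies behaved otherwise. Eif4a3l2, which RefSeq annotates as a pseudogene, had 6767 against 12023 and 12757 (0.83 ± 0.0606, adjusted p = 4.99e-21). Eif4a3l1 had 16722 against 18021 and 19122 and did not pass (0.11 ± 0.0527, adjusted p = 0.0635). Eif4a3l1 did pass with library totals only (0.21, adjusted p = 0.00142), a setting that shifted the median over all genes by 0.0959. With the GC trend removed it came to −0.055 (adjusted p = 0.354). The copies were 1.58 and 1.64 (Eif4a3l2) and 0.86 and 0.92 (Eif4a3l1) above Eif4a3 on the log2 scale in the IP libraries. Shared words made up 17.2% of Eif4a3l2, 22.3% of Eif4a3l1 and 2.7% of Eif4a3, so the split of reads among the 3 is uncertain.

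The last group acts at subunit joining and after. Eif5b, the GTPase of subunit joining, had 6081 input counts and 5724 and 5684 IP counts and did not pass (−0.13 ± 0.0654, adjusted p = 0.076), and Eif5, which triggers GTP hydrolysis on eIF2, had −0.21 ± 0.058 (adjusted p = 0.00161). Both turned positive with the GC trend removed, at 0.35 and 0.47, and Eif5b was at 0.016 with scaling to TPM. Eif6, which keeps the large subunit from joining too early, had 6766 counts against 4529 and 4932 (−0.56 ± 0.0661, adjusted p = 1.06e-11). The strongest depletion was in the pair of eIF5A genes, whose hypusine-bearing product helps ribosomes through stalling sequences. Eif5a, at 1070 TPM in the input, had 39882 counts against 13090 and 14416 (−1.58 ± 0.0496, adjusted p = 3.1e-42), and Eif5a2 had 738 against 199 and 243 (−1.78 ± 0.173, adjusted p = 4.55e-15). Both paralogs were thus depleted, and the exons of Eif5a have 58.4% GC and those of Eif5a2 40.5%. Overlap with opposite-strand genes covers 345 bases of Eif5a and 625 of Eif5a2.

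Not every row that the name takes in is an initiation factor. The eIF2 kinases, the eIF4E-binding proteins and the pseudogene Eif4a3l2 were among the tested members and are counted in the shares above. Eif2c5, under an older name of the Argonaute family, is listed as a noncoding RNA, had 13 counts in the input and 0 in each IP library, and was not tested.

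Exon composition was then set beside the ratios. The 16 depleted members had a median of 42.8% GC and 0.825 GGACT matches per kb. At any fold, the 36 lower members had medians of 49.5% GC and 0.935 matches per kb, and the 13 higher members 52% and 1.27. Over the 56 tested members the medians were 50.2% and 1.2. At least 1 match was found in 96.4% of the tested members and in 93.4% of tested protein-coding genes. Eif2s2 and Eif3g, both depleted, held none, and Eif6, which was lower, had 2.68 per kb. Across the 56 members the log2 fold change had a Pearson correlation of 0.34 (Spearman 0.27) with GC content and of 0.32 (Spearman 0.44) with matches per kb. Across tested protein-coding genes these were 0.33 (0.36) and 0.14 (0.16). These values are across genes that share the same 3 libraries and whose motif counts depend on base composition, so they are given as a description only. Exon length had no such relation among the members (0.033, Spearman 0.011).

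**Figure D4:**
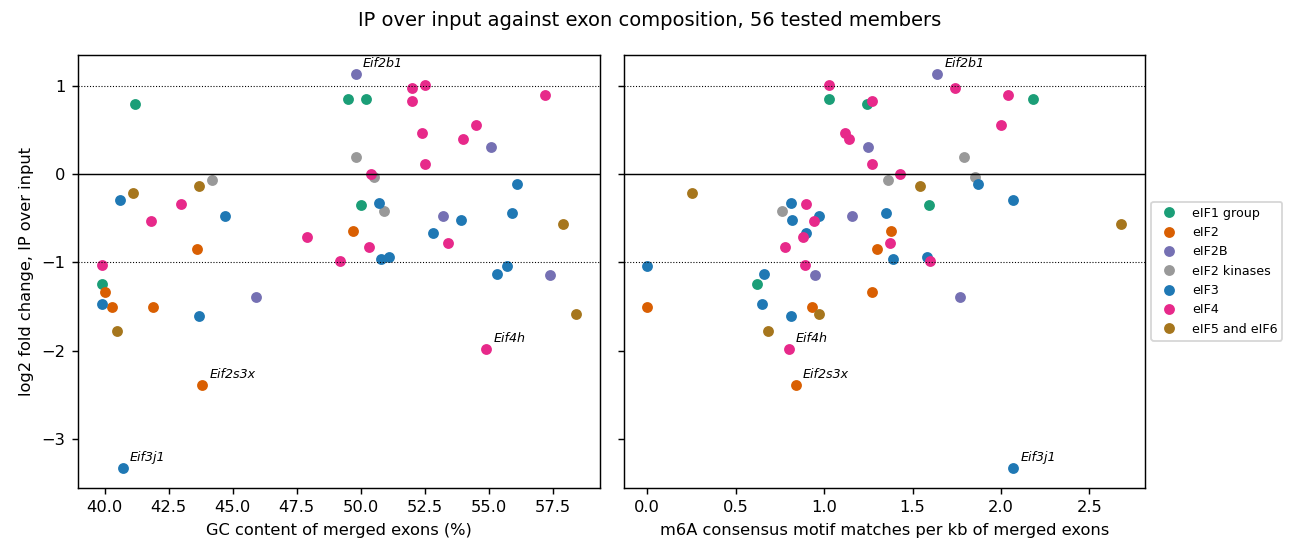
Log2 fold change of IP over input for the 56 tested members against GC content of the merged exons (%, left) and matches of the m6A consensus motif per kb of exon (right), coloured by factor group, with dotted lines at 2-fold. Members under 42% GC lie below 0 with the exception of Eif1a, and Eif3j1 combines the lowest ratio with 2.07 matches per kb.

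**Figure D5:**
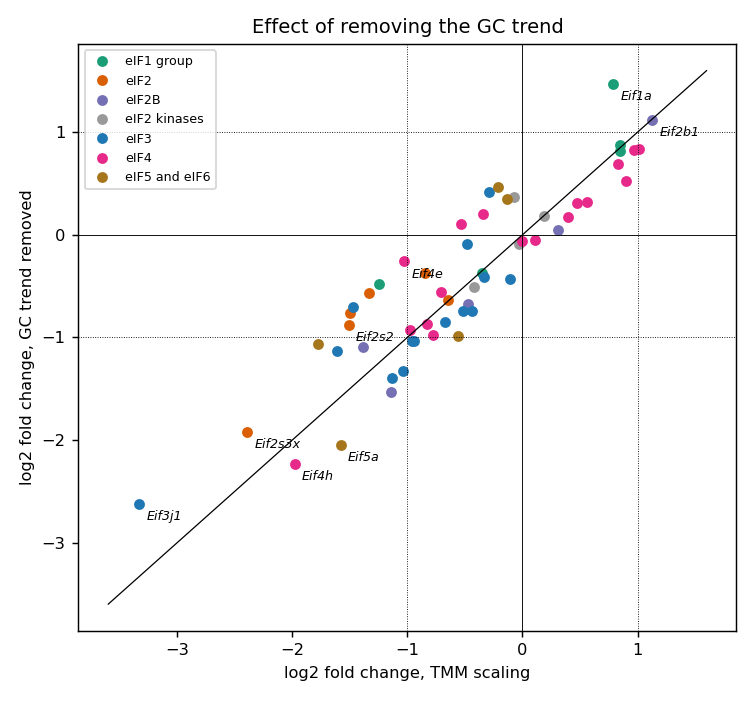
Log2 fold change of the tested members with TMM scaling (x axis) and with the trend on GC content removed (y axis), where the diagonal marks equal values and dotted lines a 2-fold difference. Eif2s2 and Eif4e rise above the 2-fold line to −0.88 and −0.26, whereas Eif3j1, Eif2s3x, Eif4h and Eif5a stay below −1 on both axes.

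Other genes of the translation pathway were read from the same fit, from 5 lists. Of 16 regulators of eIF2 phosphorylation and its stress response, 5 were enriched (31.2%, against 15.2% of all tested genes) and 3 depleted (18.8%, against 14%), 9 were higher (56.2%, against 28.5%) and 7 lower (43.8%, against 30.1%) at any fold, and the median log2 fold change was 0.78. The enriched genes were Ppp1r15a (1.68) and Ppp1r15b (1.07), which bring a phosphatase to eIF2, and Ddit3 (1.72), Trib3 (2.10) and Chac1 (2.14), which are induced when eIF2 is phosphorylated. Atf4, the main translationally controlled factor of that response, had 6696 input counts and 13223 and 13818 IP counts (0.97 ± 0.0601), just short of 2-fold, while the eIF2 assembly factor Cdc123 (−1.20), the GCN2 inhibitor Impact (−1.59) and Asns (−1.05), an asparagine synthase also induced in that response, were depleted.

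The other lists had medians below 0. Of 15 further initiation helpers, 7 were depleted (46.7%, against 14% of all tested genes), among them the helicases Ddx3x (−1.46) and Dhx9 (−1.10), the eIF5 mimic Bzw1 (−1.52), the ribosome assembly factor Ltv1 (−1.30) and the RNA-binding proteins Ptbp1 (−1.15) and Ssb (−1.11), and 2 were enriched (13.3%, near the 15.2% of all), the mitochondrial factor Mtif3 (1.69) and the single-exon gene Pcbp1 (1.03), with 3 higher (20%, against 28.5%) and 12 lower (80%, against 30.1%) at any fold and a median of −0.89. Of 15 elongation factors and their regulators, Eef1a1 (−1.15), which brings tRNA to the ribosome, Eef1e1 (−1.09), the GTPase Gtpbp1 (−1.70) and Dph1 (−1.57), which modifies eEF2, were depleted (26.7%, against 14%) and none enriched, with 4 higher (26.7%, near 28.5%) and 7 lower (46.7%, against 30.1%) at any fold and a median of −0.29 (−0.14 and −0.38 in the IP libraries). Of 9 tested termination and recycling genes, Abce1 (−1.60) and Mcts1 (−1.37) were depleted (22.2%, against 14%) and Pelo (1.39), a ribosome rescue factor, was enriched (11.1%, against 15.2%), with 2 higher (22.2%, against 28.5%) and 6 lower (66.7%, against 30.1%) at any fold and a median of −0.35. Of 22 regulators of the cap, the poly(A) tail and mTOR, the eIF4A inhibitor Pdcd4 (−1.48), the inhibitor of poly(A)-binding protein Paip2b (−1.27), Cyfip1 (−1.63), which can bind eIF4E, and its relative Cyfip2 (−1.19) were depleted (18.2%, against 14% of all tested genes) and none enriched (15.2% of all), with 8 higher (36.4%, against 28.5%) and 9 lower (40.9%, against 30.1%) at any fold and a median of −0.14.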

How the data were processed

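RIP-seq libraries of Dox-treated E14 mouse ESCs (1 input, 2 YTHDF2 IP) took their groups from the titles of the samples. The study's methods state that RNA was recovered from a cleared cell lysate, whereas the labels describe IP of Trizol-extracted total RNA, and which was done cannot be told here. Libraries were strand-specific and paired-end per the labels. The submitters' processing notes name fastp 0.19.4, HISAT2 2.2.1 and DESeq2 1.40.2 with mm10. Each deposited value is a raw read count of a gene, which the authors made with featureCounts 2.0.3 (per the file headers) over RefSeq exons. Mates were counted on their own, strand was not used, and by the defaults of that tool reads of several places or genes were left out. The table had 0 columns of other samples and 0 rows without a gene name.

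The analysis used edgeR 4.0.16 in R 4.3.3 (filterByExpr, TMM, robust dispersions, quasi-likelihood F test, prior count 0.125) with Benjamini-Hochberg adjustment over all 19601 tested genes. TMM factors were 0.957 (input) and 1.02 (each IP library), and the common dispersion was 0.00538 (coefficient of variation 7.33%), with 1 residual degree of freedom from the IP libraries. SE was derived from the fold change and the F statistic, and ratios of single IP libraries used 0.5 added to each count. The fit was tested on simulated data in which every library had the same dispersion, so that test could not probe the spread of the single input. GC content, GGACT matches and 128-base words found elsewhere on the main chromosomes came from the GRCm38.p6 (mm10) sequence and the exons of the table, and UTR and coding parts from RefSeq, with 1-based coordinates.

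The members and lists were chosen with earlier results of these data known. Each tested member was to be named, with counts for those called and for the ends of each group, and of the lists the genes called over 2-fold, of which 1 is not reported here. Other counts, Atf4, the pairs of paralogs and the genes whose sites are shown were picked after values were seen. Of the lists, 1 symbol (Mtrfr) was not matched and 1 gene (Mcts2) was not tested. Alternatives covered scaling, filters, DESeq2 1.42.0, a fixed dispersion of 0.1, halved counts, each IP library left out, and GC or length trends removed.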

Additional observations from a re-analysis of the deposited data

How the results depend on the processing

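The counts of 16 depleted, 2 enriched, 36 lower and 13 higher members changed by over 1.5 times under 3 alternatives. A dispersion fixed at 0.1 left 8 depleted, 0 enriched, 8 lower and 0 higher members, beside 1531 depleted and 1577 enriched of all genes against 2743 and 2973 (no member was higher at an adjusted p under 0.05 in that likelihood ratio test by edgeR, against 13 by its quasi-likelihood test). The filter of at least 50 counts in 2 libraries left 1 enriched member (2480 of all genes), and scaling to TPM gave 6 (3568 of all genes). The cause was not tested.

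The median of the tested members was −0.46 with the GC trend removed, −0.41 with library totals only, −0.35 with scaling to TPM and −0.51 to −0.45 with an IP library left out. Leaving out an IP library gave 0.72 to 0.83 for the eIF1 group, −1.44 to −1.31 for eIF2 and −0.0019 to 0.0053 for eIF4. Of the groups, GC trend removal gave −0.70 for eIF2, 0.046 for the kinases, −0.67 for eIF2B, 0.11 for eIF4 and −0.99 for eIF5 and eIF6. Library totals gave 0.89 for the eIF1 group, −1.32 for eIF2, 0.045 for the kinases, −0.38 for eIF2B, −0.71 for eIF3, 0.095 for eIF4 and −0.46 for eIF5 and eIF6. TPM gave, in the same order, 0.94, −1.27, 0.097, −0.33, −0.66, 0.15 and −0.41, and moved the median of all genes by 0.148. Length trend removal gave −0.019 for the kinases, −0.88 for eIF3, 0.024 for eIF4 and −0.64 for eIF5 and eIF6. No filter gave −0.027 for the kinases, −0.78 for eIF3 and 0.023 for eIF4. For eIF4 the filter of 50 counts gave 0.04, halved counts −0.0029 and DESeq2, by its size factors or its Wald test, 0.0016.

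Single members changed sign with the GC trend removed (Eif2ak2 0.37, Eif3j2 0.42, Eif4a2 0.11, Eif4a3l1 −0.055, Eif4g2 0.20, Eif5 0.47, Eif5b 0.35), with library totals (Eif2ak2 0.026, Eif2ak3 0.063, Eif4e2 0.095) and with TPM (Eif2ak2 0.078, Eif2ak3 0.12, Eif3d 0.033, Eif4e2 0.15, Eif5b 0.016). Eif4e2 also did so without the filter (0.023), with the length trend removed (0.039) and with DESeq2 or its size factors (0.0016).

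No paired analysis was possible because only the IP libraries have replicate numbers, and 1 input serves both. Members near or under the floor of 3 counts were limited by depth.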
